A study of Mus musculus with 6 samples.

Results

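Lymphatic endothelial cells, the cells that line lymphatic vessels, made up 487 of the 59413 mouse aortic cells that passed the filters. The filters kept cells with at least 300 detected genes and less than 20% of their transcripts from mitochondrial genes. A cell was taken as lymphatic when it held at least 2 unique molecular identifiers (UMIs, 1 per captured transcript) summed over Prox1, Mmrn1 and Flt4, at least 1 summed over Ccl21a and Lyve1, and none of the leukocyte gene Ptprc. The comparison population was 3895 blood endothelial cells, which held at least 3 UMIs summed over Pecam1, Cdh5 and Egfl7 and none of Prox1 or Mmrn1. The cells were therefore chosen by their expression of these genes, which are described below without a test.

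The study measured single-cell transcriptomes of aorta from C57B/6J mice aged 18 weeks, in 3 samples labelled control (normal diet) and 3 samples labelled high-fat diet. Its title names Klf2 in Vcam1-positive endothelial cells. No genotype, transgene or feeding time is given, and the labels do not say whether the samples of a group came from separate animals, so p-values measure the spread between these samples only. Cells were released with collagenase and DNase, red cells were lysed, and libraries read the 3' ends of transcripts. Values are given in the order control 1, 2 and 3, then high-fat diet 1, 2 and 3.

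Lymphatic endothelium takes up tissue fluid, lipid and migrating leukocytes and carries them back to the blood. Its identity is set by the transcription factor Prox1 and maintained by the growth factor receptor Flt4 (VEGFR-3), which binds Vegfc. Blind-ended initial lymphatics carry the hyaluronan receptor Lyve1 and secrete Ccl21a, the chemokine that draws Ccr7-bearing dendritic cells and T cells, whereas collecting vessels have valves, a continuous basement membrane and little Lyve1. In the aorta, lymphatic vessels run in the adventitia.

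The samples contributed 88, 68 and 84 lymphatic cells in the controls and 69, 97 and 81 with high-fat diet. Their summed UMIs ranged from 399664 to 982131 per sample, against 2702729 to 6324517 for blood endothelial cells, so changes of low genes are less well resolved in the lymphatic cells. The median lymphatic cell held 3999 to 6890 UMIs, depending on the sample. Whole libraries held 41388034 to 83886418 UMIs. Libraries shared 61 to 260 cell barcodes with each other, and 32 lymphatic cells shared a barcode with a cell of another library, none of them with a lymphatic cell. Levels are given below as CPM, a gene's UMIs per 1000000 UMIs of that sample's cells of the type. Haemoglobin transcripts took 38649 CPM in the lymphatic cells of control 2, against 560 to 3198 in the other samples, and 6 cells of control 2 had more than 5% of their UMIs from that list. Scrublet scored 13 of the 487 cells above 0.25, and these were kept in the main results.

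The rule genes were all abundant in the chosen cells, as the rule required. Ccl21a stood at 6177, 19470 and 24780 CPM in the controls and at 22620, 13550 and 19660 with high-fat diet. Lyve1 stood at 1246, 1353 and 1852 against 2379, 1356 and 2022 CPM. Mmrn1, an extracellular matrix glycoprotein, ranged from 1322 to 2194, Flt4 from 282 to 679 and Prox1 from 213 to 358 CPM. Ccl21a was lowest in control 1, and for each of these genes the diet groups overlapped. A Prox1 UMI was seen in 69.0% of the cells, a Flt4 UMI in 79.9%, a Lyve1 UMI in 79.7%, a Ccl21a UMI in 92.2% and a Mmrn1 UMI in 95.7%. The 487 cells held 71.5% of all Ccl21a UMIs of the filtered cells, 70.7% of the Mmrn1 UMIs and 62.3% of the Prox1 UMIs, but only 21.2% of the Lyve1 UMIs. Outside the lymphatic cells Ccl21a still ran at 32.3 to 245 CPM, and 1187 blood endothelial cells held a Ccl21a or Lyve1 UMI, so 1 such UMI alone does not mark a lymphatic cell.

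The chemokine gene has near-identical copies on chromosome 4 (GRCm38). Ccl21a lies at 42772860 to 42773993 on the minus strand, Gm21541 at 41903610 to 41904743 and Gm13304 at 42114817 to 42115917 on the plus strand. The 870-base transcripts of Ccl21a and Gm21541 differ at 6 positions counted from the transcript's 5' end: G24A in the 5' UTR, T159A in exon 2, C269T in exon 3, and C640T, T812C and G856A in the 3' UTR. The stretch around the exon 3 difference is shown because it tells the copies apart, with the differing base in capitals.
Ccl21a: ggcaatcctgttctCaccccggaagcact
Gm21541: ggcaatcctgttctTaccccggaagcact
In the lymphatic cells 63938 UMIs were assigned to the main Ccl21a entry, 550 to Gm21541 and 13 to Gm13304. Reads from 1 copy can be assigned to another at this similarity, so the split between copies is uncertain.

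**Figure D1:**
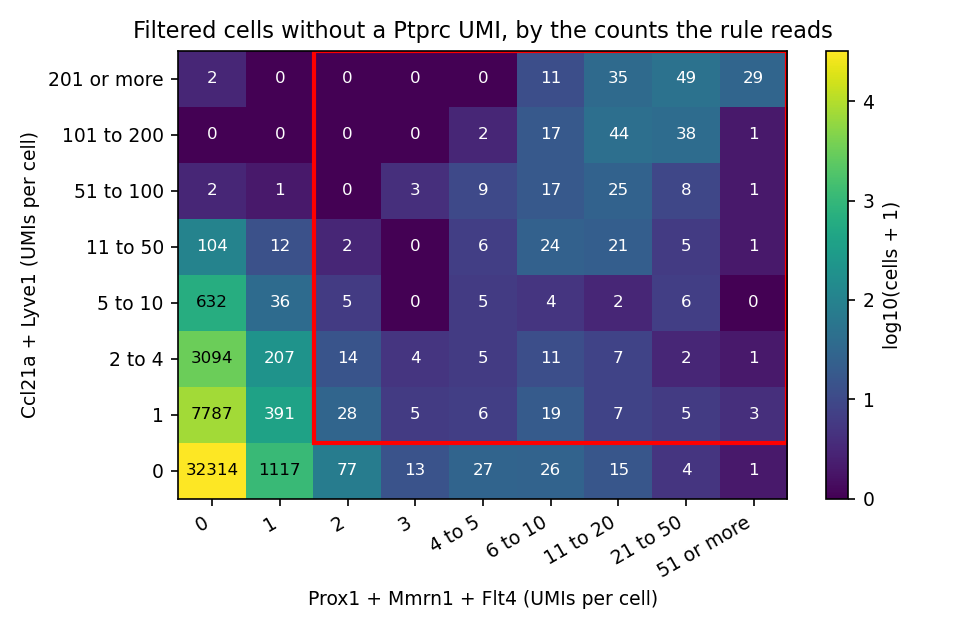
Heat map of filtered cells without a Ptprc UMI by the summed UMIs of Prox1, Mmrn1 and Flt4 (x axis) and of Ccl21a and Lyve1 (y axis). Colour is log10 of the cell count plus 1, the count is written in each square, and the red outline holds the 487 lymphatic cells. Most cells (32314) have none of the 5 markers.

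Cells near the edge of the rule were less clearly lymphatic than the core. Of the members, 393 held at least 6 UMIs of Prox1, Mmrn1 and Flt4, and 338 of these also held at least 5 of Ccl21a and Lyve1. The 49 members with a sum of exactly 2 had Ccl21a at 160 CPM, near the 144 of the 647 cells just outside with a sum of 1. An endothelial UMI (Pecam1, Cdh5 or Egfl7) was present in 67.3% of those 49 cells, in 48.5% of the 647, and in 94.0% of all members. On the other side of the rule, 46 cells had a sum of at least 6 but no Ccl21a or Lyve1 UMI, and each of them had an endothelial UMI. Those 46 cells, split 2, 7 and 5 in the controls and 15, 4 and 13 with high-fat diet, are left out by the rule and return below. The heat map of marker sums shows both edges.

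Lymphatic genes that the rule did not use were frequent in the chosen cells. After each cell was thinned to 2000 UMIs, to put types of different depth on a level, Reln was detected in 54.5% of lymphatic cells, 0.281% of blood endothelial cells and 0.642% of Ptprc-positive cells. Pard6g was detected in 56.9%, 1.32% and 0.993%, and Pdpn, the membrane glycoprotein podoplanin, in 41.6%, 4.15% and 3.69%. Blood endothelial genes were mixed by detection. Emcn and Notch1 were detected in 43.9% and 24.7% of lymphatic cells, against 33.2% and 15.2% of blood endothelial cells. In summed levels, 22 of 29 tested genes of that list were lower in lymphatic cells, and some were also clearly less often detected there. Flt1, the VEGFR-1 receptor, was detected in 4.33% of lymphatic and 44.5% of blood endothelial cells, and the arterial transcription factor Sox17 in 0.216% and 17.6%. Acta2, of smooth muscle, was detected in 74.9% of lymphatic, 77.5% of blood endothelial and 65.9% of Ptprc-positive cells, so an Acta2 UMI does not set these types apart. Its source in these cells was not tested.

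The share of lymphatic cells among all filtered cells did not separate the diets. It was 1.34% (Wilson 95% interval 1.09 to 1.65), 0.410% (0.324 to 0.520) and 1.01% (0.814 to 1.25) in the controls. With high-fat diet it was 0.665% (0.526 to 0.840), 1.22% (1.00 to 1.48) and 0.842% (0.678 to 1.05). The intervals cover counting error only, and the samples within a group differed by more than these intervals. The means were 0.920% ± 0.472 and 0.909% ± 0.283 (SD, n = 3 each), a difference of -0.0115 percentage points (2-sided exact permutation test, p = 1).

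Within the endothelium the lymphatic share was 14.9%, 11.8% and 13.6% in the controls and 9.47%, 10.3% and 8.77% with high-fat diet. Every control lay above every high-fat sample. The means were 13.4% ± 1.58 and 9.50% ± 0.750 (SD, n = 3 each), and the 2-sided exact permutation test gave p = 0.1, the smallest value that 3 against 3 samples allow. The call of a cell depends on its depth, and when each cell was thinned to 2000 UMIs before the rules were applied the shares ran from 15.2% to 23.3% in the controls and from 9.87% to 15.8% with high-fat diet, which overlapped (exact permutation p = 0.3). The lower share cannot be told apart from more blood endothelial cells released from the tissue.

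**Figure D2:**
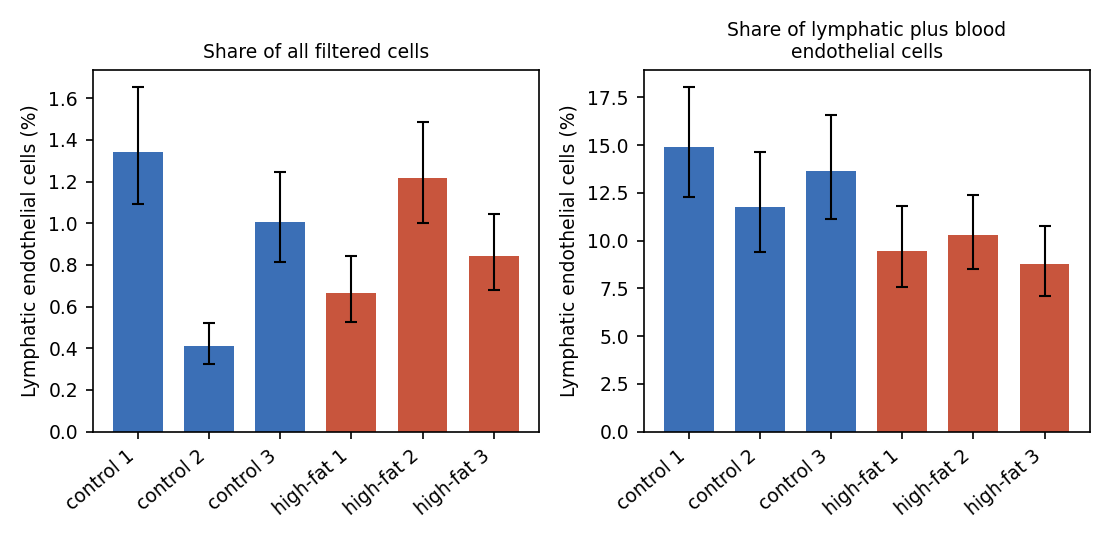
Share of lymphatic endothelial cells per sample, in percent, among all filtered cells and among lymphatic plus blood endothelial cells. Bars are single samples and whiskers are Wilson 95% intervals. The controls sit at 11.8% to 14.9% of the endothelium and the high-fat diet samples at 8.77% to 10.3%.

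Lymphatic and blood endothelial cells were compared over the genes that the rules did not use. Reln, which encodes the secreted glycoprotein reelin, ranged from 253 to 773 CPM in lymphatic cells with a median of 493, and from 0.269 to 4.05 in blood endothelial cells with a median of 1.91. All 6 lymphatic values exceeded all 6 blood values. The log2 difference was 7.77 (SE 0.35; edgeR quasi-likelihood F test, Benjamini-Hochberg adjusted p = 4.19e-06). The test summed UMIs per sample and type with the sample as a block, and adjusted over 10403 genes. Of these, 2736 passed at an adjusted p under 0.05 (26.3%), 1269 of them higher in lymphatic cells (12.2%) and 1467 lower (14.1%). At an unadjusted p under 0.05 there were 3749 genes (36.0%), and DESeq2 called 2347 (22.6%). Irrespective of the test, 12.8% of genes were higher in lymphatic cells in every sample and 14.6% were lower in every sample. The blood rule used the shared endothelial genes Pecam1, Cdh5 and Egfl7 and barred Prox1 and Mmrn1, whereas the lymphatic rule required lymphatic markers. Differences in lymphatic and in endothelial genes therefore follow in part from the choice.

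The 10 genes with the largest positive differences, among those at 50 or more CPM and higher in every sample, began with an oxidase and its partner. Duox2, a dual oxidase that makes hydrogen peroxide, ranged from 49.9 to 109 CPM (median 83.1) in lymphatic cells and from 0 to 1.48 in blood endothelial cells. Its maturation factor Duoxa2 averaged 55.8 ± 10.8 (SD, n = 6) and its blood mean was 0.346. These genes lie next to each other on chromosome 2, and the types did not overlap for either. The iron-binding protein gene Lcn2 stood at 517, 700 and 877 in the controls and at 1474, 1023 and 797 CPM with high-fat diet, against a mean of 12.4 ± 7.58 in blood endothelial cells (log2 difference 6.22, SE 0.36). The polarity gene Pard6g averaged 507 ± 170 against 7.11 (6.11 on the log2 scale), the Notch regulator Dtx1 189 ± 45.5 against 2.51 (6.11), the receptor gene Adgrg3 151 ± 50.3 against 1.61 (6.58) and Clca3a1, a calcium-activated chloride channel regulator, 282 ± 76.0 against 4.58 (5.96). Sh3gl3 and Apba2 completed the set at log2 differences of 6.60 and 6.36. All 10 stayed past the threshold in every alternative in which they were tested.

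The 10 genes with the largest negative differences were taken among those at 50 or more CPM in blood endothelial cells and lower in every sample. They held known blood endothelial genes. Flt1 ranged from 7.78 to 55.0 CPM in lymphatic cells (median 34.7) and from 173 to 650 in blood endothelial cells (median 446). The log2 difference was -3.49 (SE 0.36; edgeR quasi-likelihood F test, Benjamini-Hochberg adjusted p = 0.000702). Sox17 averaged 4.89 ± 5.23 against 96.2 ± 47.7 CPM (-4.21 on the log2 scale), and the capillary transcription factor gene Tcf15 28.7 ± 17.3 against 331 ± 180 (-3.37). The carbonic anhydrase gene Car4 of capillaries averaged 8.16 ± 7.97 against 168 ± 89.9 (-4.08), and the aquaglyceroporin gene Aqp7 7.89 against 123 (-3.77). Gkn3, which marks some arterial cells, had the largest difference of the 10 at -5.56, with Aplnr, C1qtnf9, Rgcc and Thrsp between -4.11 and -3.40. Each of the 10 was lower in lymphatic cells in all 6 samples, as the choice required.

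**Figure D3:**
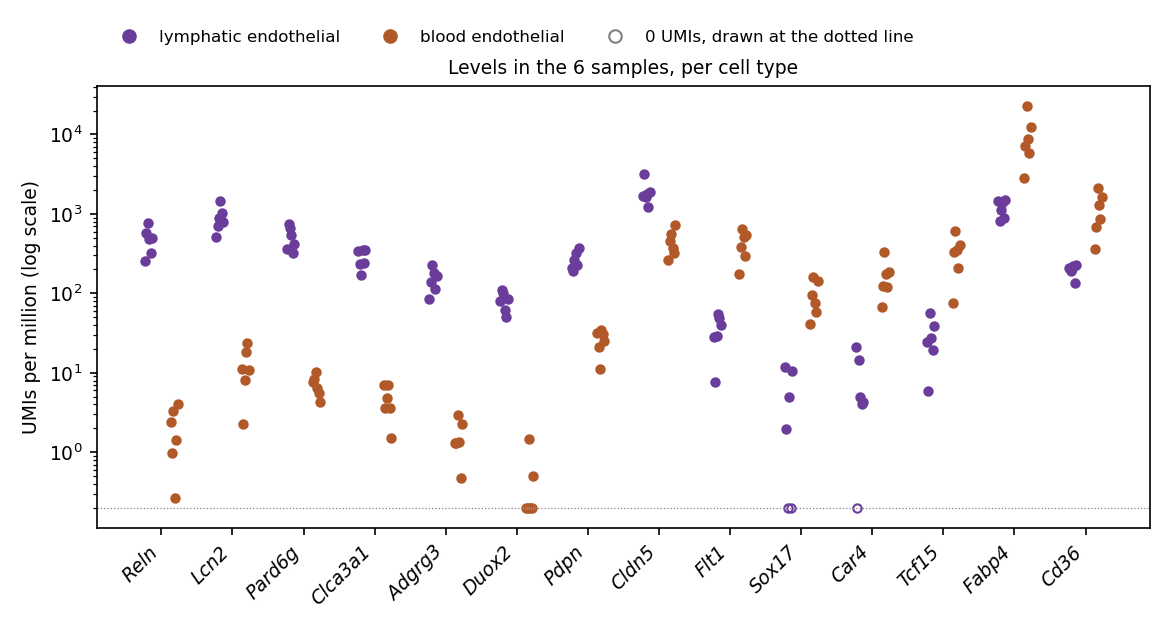
CPM of 14 genes in lymphatic and blood endothelial cells, on a log axis, with 1 point per sample and type (6 each). Open circles on the dotted line are samples with 0 UMIs. Reln lies at 253 to 773 in lymphatic cells, and Flt1 at 173 to 650 in blood endothelial cells.

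Of 24 lymphatic identity genes that the rule did not use, 23 were higher in lymphatic cells, none was lower, and the median log2 difference was 3.36, against 0.00 over all genes tested. Fgl2, a secreted fibrinogen-like protein, averaged 1212 ± 352 CPM against 99.1 ± 45.5. The copper-carrying ferroxidase gene Cp averaged 792 ± 108 against 78.5 (log2 difference 3.37), the neuropeptide gene Nts 611 ± 370 against 16.1 (5.42) and Fxyd6, a regulator of the sodium pump, 1021 ± 294 against 94.4 (3.46). Pdpn stood at 209, 192 and 260 in the controls and 325, 228 and 371 with high-fat diet, against 25.8 ± 8.74 in blood endothelial cells (3.35). Among the transcription factors, Maf averaged 524 ± 184 against 41.8 (3.59), Tbx1 139 against 6.77 (4.38) and Nr2f2, a partner of Prox1, 408 against 86.4 (2.23). The scavenger receptor gene Stab1 was 2.28 higher on the log2 scale.

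Receptors and ligands of the vascular growth factors, listed with related genes, were split between the types. Of 14 such genes tested, 6 were higher and 5 lower in lymphatic cells (median log2 difference 0.20). Nrp2, the co-receptor that pairs with Flt4, averaged 264 ± 104 CPM against 78.8 (1.77), whereas its relative Nrp1 averaged 51.5 against 503 ± 162 (-3.23). Kdr, the VEGFR-2 receptor, averaged 393 ± 114 against 299 ± 160 and was higher in 5 of 6 samples (0.52). Tie1 was 0.99 higher and the phosphatase gene Ptprb 1.55 lower (log2 difference -1.55). Tek differed by 0.04 and did not pass. Of the ligands, Pgf was higher in lymphatic cells (46.8 against 18.0 CPM, 1.35) and Vegfc lower (2.08 against 14.8, -2.63).

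Chemokine and cytokine genes set the lymphatic cells apart by Il7 and the decoy receptors. Il7, the survival factor of lymphocytes, stood at 103, 68.0 and 125 CPM in the controls and 130, 62.1 and 141 with high-fat diet. In blood endothelial cells it averaged 1.68 ± 0.927 (SD, n = 6). The types did not overlap, and the log2 difference was 5.88 (SE 0.19; edgeR quasi-likelihood F test, Benjamini-Hochberg adjusted p = 6.56e-11). Ackr4, which scavenges the ligands of Ccr7, stood at 41.1, 132 and 49.3 against 57.5, 31.6 and 151 CPM and averaged 4.17 in blood endothelial cells (4.07). Ackr2, the scavenger of inflammatory CC chemokines, averaged 50.9 ± 16.1 against 4.54 (3.44), and Ackr3, the scavenger of Cxcl12, 145 against 54.5 (1.39). The chemokine Cxcl12 itself was lower, at 87.4 ± 39.4 against 581 ± 243 (-2.68), as was Cxcl9 at 1.27 against 45.5 (-4.97). The alarmin gene Il33 and the receptor subunit gene Il6st were higher, by 1.36 and 0.78. In all, 6 of 13 tested members were higher and 4 lower.

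Among adhesion and leukocyte-traffic genes, 5 of 15 were higher and 6 lower. Spns2, the exporter of sphingosine 1-phosphate, averaged 75.8 ± 28.6 against 17.9 CPM (2.07), while its receptor gene S1pr1 differed by 0.10. The venular adhesion genes were low. P-selectin (Selp) averaged 0.613 against 17.2 CPM (-4.80), and Vcam1 stood at 9.40, 35.0 and 20.3 in the controls and 22.5, 46.8 and 10.7 with high-fat diet, against 120 ± 53.8 in blood endothelial cells (-2.17). Vcam1 was lower in lymphatic than in blood cells in each sample. Cd200, which signals to myeloid cells, was lower by 1.03 (log2 difference -1.03).

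Of 14 junction genes tested, 7 were higher and 2 lower. Claudin 5 (Cldn5) stood at 1689, 3177 and 1632 CPM in the controls and 1794, 1224 and 1875 with high-fat diet, against 450 ± 167 in blood endothelial cells (log2 difference 2.10). The connexin genes differed from each other. Gja1 averaged 151 against 69.3 CPM (1.14), whereas the arterial Gja5 averaged 0.366 against 36.9 (-5.83). The adhesion gene Esam was lower (-2.02), and the catenin genes Ctnna1 and Jup were higher (0.76 and 0.65).

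Of 22 genes of collecting vessels and valves, 14 were higher and 3 lower (median log2 difference 0.66). Cldn11 averaged 49.5 against 3.88 CPM (3.86), Sema3a, a guidance ligand of valve formation, 66.4 against 2.38 (4.82), and the planar polarity gene Celsr1 26.5 against 3.13 (3.07). The valve transcription factor genes Foxc2 and Nfatc1 were higher by 1.35 and 1.51. Of 18 genes linked to Klf2 and shear stress, 7 were higher and 3 lower, led by Nqo1 (66.0 against 12.6 CPM, 2.31), Tgm2 (1.25) and Thbd (1.08). Klf2 itself averaged 523 ± 181 against 614 ± 354 CPM and was higher in lymphatic cells in 3 of 6 samples (-0.12; edgeR quasi-likelihood F test, Benjamini-Hochberg adjusted p = 0.743).

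Genes of lipid uptake were lower in lymphatic cells. Of 34 lipid-handling genes tested, 12 were lower and 4 higher (median log2 difference -0.37). Fabp4, the fatty acid carrier of capillary endothelium, averaged 1192 ± 291 against 9958 ± 7002 CPM (-2.82), the fatty acid receptor gene Cd36 197 ± 33.1 against 1162 ± 652 (-2.36) and the lipoprotein receptor gene Scarb1 11.6 against 114 (-3.19). The cholesterol exporter gene Abca1 and the sterol receptor gene Nr1h3 were higher, by 1.19 and 1.43. Matrix genes went both ways, with 9 of 23 higher and 10 lower. Igfbp5 averaged 2869 ± 469 against 354 ± 93.5 CPM (3.05), and Sparc 980 against 2766 (-1.77).

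Of 29 blood endothelial genes, 22 were lower and 2 were higher, Notch1 (1.11) and Emcn (0.45). All 9 antigen-presentation genes of MHC class II were lower (median log2 difference -0.82), among them Cd74 at 632 ± 397 against 1249 ± 605 CPM. The lymphatic rule bars Ptprc and the blood rule does not, and 336 blood endothelial cells held a Ptprc UMI. With Ptprc barred from both types, an endothelial UMI required of the lymphatic cells and no Lyve1, Ccl21a or Flt4 UMI allowed in the blood cells, none of 6 tested class II genes passed edgeR's test and their median was -0.05. Fibroblast genes (11 of 12) and smooth muscle genes (5 of 12) were lower in the lymphatic cells, with medians of -1.13 and -1.33. Macrophage genes (5 of 14) and all 4 B cell genes were also lower, against 14.1% of all genes tested. As Ptprc was barred on the lymphatic side only, these lower leukocyte genes may follow in part from the rules. Neither list was compared with Ptprc barred from both types. Of 4 T cell genes, Thy1 and Cd2 were higher. Thy1 averaged 472 ± 162 against 26.8 CPM (4.14) and was detected in 56.3% of lymphatic and 12.8% of Ptprc-positive cells at 2000 UMIs, while the T cell receptor gene Cd3d was detected in 1.52% and 12.0%.

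The lymphatic cells were not uniform. Each cell was thinned to 1500 UMIs and split by whether a Lyve1 UMI remained, which gave 331 Lyve1-positive and 151 Lyve1-negative cells. The negative share was 43.7%, 29.4% and 26.2% in the controls and 27.5%, 34.0% and 25.0% with high-fat diet, so the diet groups overlapped. The share moved with the cells and depth used. With raw Lyve1 UMIs it was 29.5%, 23.5% and 20.2% against 18.8%, 17.5% and 12.3%, with no overlap, and at a marker sum of at least 6 it ran from 21.7% to 33.3% in the controls, with control 1 at 23.4%, and from 18.2% up to values inside that range with high-fat diet. The sums of the 2 sides were compared within each sample, and Lyve1 and the other rule genes were left out of the test. Of 4499 genes, 562 passed (12.5%), 285 higher on the Lyve1-positive side (6.33%) and 277 lower (6.16%). At an unadjusted p under 0.05 there were 1094 (24.3%), and DESeq2 called 278 (6.18%). Of all genes tested, 11.2% were higher on the positive side in every sample and 5.25% lower in every sample. The negative cells were deeper in every sample, with medians of 5163 to 10050 UMIs against 3402 to 5568.

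Of 4 initial lymphatic (capillary) genes tested out of 9 listed, 3 were higher in Lyve1-positive cells (Reln, Pdpn and Mrc1) and none was lower. Reln stood at 493, 814 and 1098 CPM on the positive side of the controls and 636, 575 and 737 with high-fat diet. On the negative side it stood at 88.8, 143 and 180, and 125, 83.1 and 94.5. No sample crossed, and the log2 difference was 2.51 (SE 0.13; edgeR quasi-likelihood F test, Benjamini-Hochberg adjusted p = 1.37e-10). The largest differences were in Cd2, an adhesion receptor best known from T cells, at a mean of 96.2 against 3.67 CPM (4.21), and in the mechanosensitive channel gene Piezo2 at 113 against 6.71 (3.78). The matrix gene Fbln7 (3.77), the adaptor gene Apba2 (3.31) and Igfbp3 (3.05) followed. Pdpn (1.20), Maf (1.15), Abi3bp (1.37) and the mannose receptor gene Mrc1 (1.29) were also higher. Of 23 identity genes, 9 were higher and none lower.

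Lyve1-negative cells carried more of a second set. Ackr4 stood at 63.1, 270 and 123 CPM on the negative side of the controls and 192, 51.5 and 407 with high-fat diet. On the positive side it stood at 8.75, 57.1 and 8.98, and 0, 10.6 and 6.70. Within each sample the negative side was the higher (log2 difference -3.52, SE 0.44; edgeR quasi-likelihood F test, Benjamini-Hochberg adjusted p = 0.000639). The prostaglandin synthase gene Ptgs1 averaged 142 against 16.6 (-2.95), Parm1 89.6 against 12.9 (-2.86), the tricellular junction gene Lsr 77.9 (-2.77) and Plvap, the diaphragm protein of fenestrated and lymphatic endothelium, 471 against 73.2 (-2.69). Collecting and valve genes went the same way, with 8 of 19 higher on the negative side and 1 higher on the positive side. The 8 included the transcription factor gene Foxp2 (169 against 66.9 CPM, -1.31), Cldn11 (-1.32), Foxc2 (-0.96), Gata2 (-0.89) and fibronectin, Fn1 (-1.41). Pooled Fn1 was highest in members with a marker sum of 2 to 5, at 441 CPM, against 332 in blood endothelial cells. At a sum of at least 6, members with 1 to 4 Ccl21a and Lyve1 UMIs had 356, and the rest 157.

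Several gene families divided along the same line. The decoy receptor gene Ackr2 was higher on the positive side (78.4 against 11.9 CPM, 2.85), opposite to Ackr4, and so was Il7 (137 against 61.7, 1.14). Of the growth factor genes, Pgf (2.74) and Nrp2 (1.49) were higher on the positive side and Flt1 (-1.94) on the negative side. Among 20 lipid genes, 7 were higher on the negative side, among them Fabp4 (2357 against 450 CPM, -2.56) and Cd36 (316 against 115, -1.56), and the lipase gene Mgll was higher on the positive side (1.17). Blood endothelial genes were also higher on the negative side in 6 of 19 cases, and smooth muscle genes in 2 of 11. The negative side includes members with a marker sum of 2 to 5. Their pool had Flt1 at 100 and Des at 582 CPM, against 10.4 and 145 in the 338 members rich in both marker sets. How far the list counts rest on such members was not tested. At a marker sum of at least 6, which left 12 to 19 negative cells per sample in place of 19 to 38, all 10 genes named for their size still passed. Cldn5 (-0.08) and Klf2 (0.10) did not pass.

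**Figure D4:**
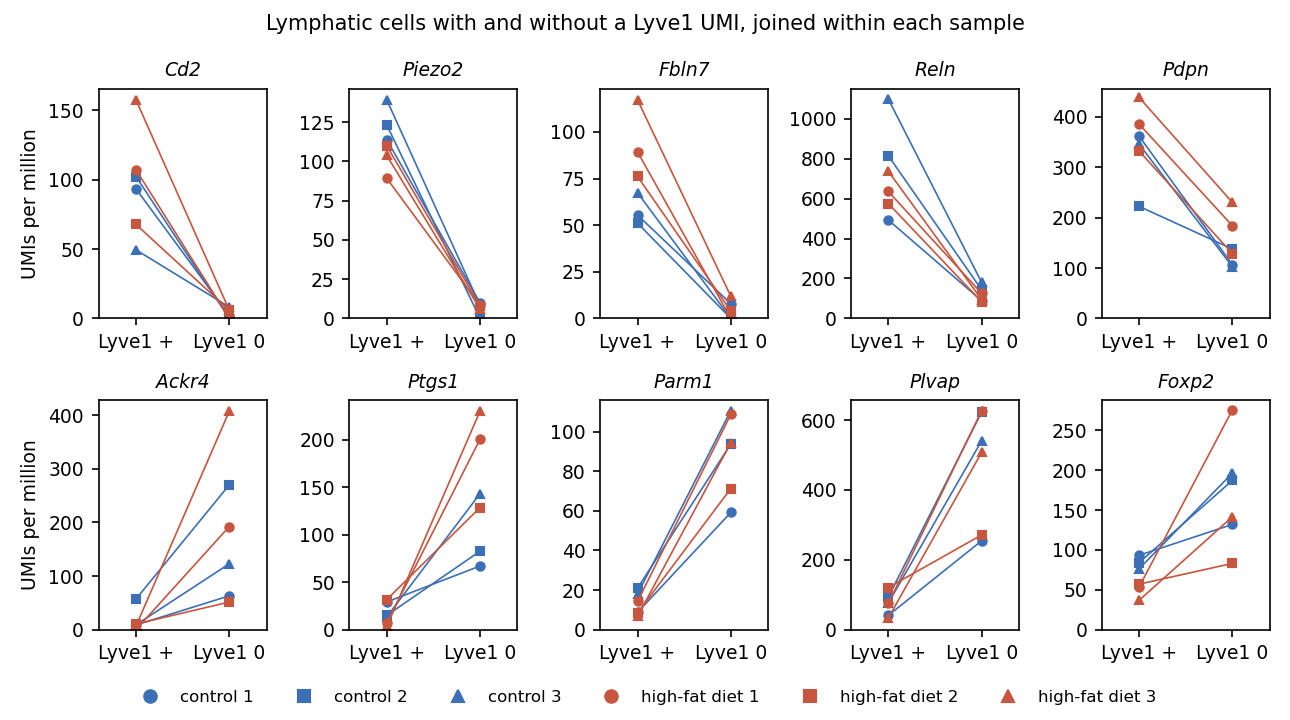
CPM of 10 genes in the Lyve1-positive and Lyve1-negative lymphatic cells of each sample, with a line joining the 2 sides of a sample. Reln, Pdpn, Cd2, Piezo2 and Fbln7 are higher on the positive side in each of the 6 samples, and Ackr4, Ptgs1, Parm1, Plvap and Foxp2 on the negative side.

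The 46 cells left out by the rule shared several gene levels with the Lyve1-negative side. In their pooled UMIs, Ackr4 stood at 447 CPM, against 307 in the 55 members with a marker sum of at least 6 and only 1 to 4 UMIs of Ccl21a and Lyve1. In the 338 members rich in both marker sets it stood at 17.6, and in blood endothelial cells at 3.98. Plvap ran at 835, 679, 113 and 143 in the same order, and Foxp2 at 245, 216, 83.3 and 48.8. Reln ran the other way, at 50.5, 85.5, 684 and 2.01. Fabp4 stood at 3525, 2347, 564 and 8821 and Cd36 at 508, 267, 113 and 1078, so for these genes the 46 cells lay nearer to blood endothelial cells than the 338 did. The lymphatic genes that did not follow Lyve1 stood near the level of the members in the 46 cells. Fxyd6 stood at 1234, 1391, 1084 and 92.6, and Duox2 at 112, 126, 89.3 and 0.246. These are pooled values without replicates and carry no test. The 94 members with a marker sum of 2 to 5 held less of the lymphatic genes, with Reln at 40.6 and Pard6g at 83.7 CPM, and Fabp4 at 2162. Some transcripts of other cells were higher in their pool than in the 338 members and in blood endothelial cells. Among them were the mesothelial Krt19 (171 against 9.61 and 22.4), the muscle gene Des (582 against 145 and 178) and haemoglobin Hbb-bs (5459 against 1577 and 2838). Single samples weighed heavily on the mesothelial and erythroid part. In the 94 cells the mesothelial list ran at 1756 CPM in high-fat diet 2 and at 18.6 to 482 in the other samples. The erythroid list ran at 185500 in control 2 and at 450 to 2521 elsewhere. A single member of high-fat diet 2 held 79.8% of that sample's mesothelial UMIs among members. The part of the 94 members in the results was not tested beyond the alternatives with a higher marker sum.

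Few genes passed the diet comparison in the lymphatic cells. Of 6934 genes tested on the sample sums, 5 passed edgeR's quasi-likelihood test (0.0721%), all higher with high-fat diet, and none was lower (0.0%). At an unadjusted p under 0.05 there were 541 genes (7.8%), and DESeq2 called 11 (0.159%). Of the 5, 3 were on the unfolded protein response list and 1 on the heat shock list, and no enrichment was tested.

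Hspa5, the chaperone BiP of the endoplasmic reticulum (chromosome 2, 34771970 to 34777547, plus strand), stood at 258, 183 and 115 CPM in the controls. With high-fat diet it stood at 623, 934 and 767. The groups did not overlap, and the log2 difference was 2.02 (SE 0.28; edgeR quasi-likelihood F test, Benjamini-Hochberg adjusted p = 0.0417). Hsp90b1, the GRP94 chaperone of the same compartment (chromosome 10, 86690209 to 86705509, minus strand), stood at 300, 342 and 265 against 706, 913 and 660 CPM (1.28, SE 0.19). Manf, a secreted protein of the endoplasmic reticulum stress response (chromosome 9, 106838312 to 106891979, minus strand), stood at 127, 136 and 148 against 308, 405 and 322 (1.28, SE 0.19). P4ha1, a prolyl hydroxylase subunit that modifies collagen (chromosome 10, 59323296 to 59373304, plus strand), stood at 35.2, 17.5 and 21.8 against 80.1, 99.8 and 93.7 (1.79, SE 0.28). Hspa8, the constitutive cytosolic chaperone Hsc70 (chromosome 9, 40800984 to 40810087, plus strand), stood at 784, 729 and 512 against 1396, 1642 and 1753 (1.19, SE 0.18). The last 4 shared an adjusted p of 0.0349 in edgeR's test, and in each the groups did not overlap. Non-overlap was common, with 944 of the 6934 genes (13.6%), 8.73% higher with high-fat diet and 4.89% lower.

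The calls depended on single samples, whereas the differences stayed positive. Without control 2, or without any 1 of the high-fat diet samples, no gene passed, and without control 3 there were 3 calls, of which only Hspa5 was among the 5. Without control 1 there were 60 calls, 33 higher and 27 lower. Over all alternatives the log2 difference of Hspa5 ran from 1.78 to 2.32, that of Manf from 1.12 to 1.39 and that of Hspa8 from 1.04 to 1.31.

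The unfolded protein response is the program that expands folding capacity in the endoplasmic reticulum. Of 20 of its genes tested, 3 passed (Hspa5, Manf and Hsp90b1) and 19 had a positive difference. In 15 the groups did not overlap, all higher with high-fat diet, against 8.73% of all genes tested. The median log2 difference was 0.70, against -0.01 over all genes. Summed over the list, the level was 2631, 2666 and 2435 CPM in the controls and 4872, 5823 and 4813 with high-fat diet. Calr, the calcium-binding chaperone, stood at 243, 354 and 321 against 711, 739 and 594 (1.10; edgeR quasi-likelihood F test, Benjamini-Hochberg adjusted p = 0.0701). The disulfide isomerase gene Pdia6 stood at 132, 119 and 84.1 against 238, 353 and 241 (1.28; edgeR quasi-likelihood F test, Benjamini-Hochberg adjusted p = 0.0706), and Pdia3 at 254, 292 and 251 against 473, 583 and 490. Selk differed by 0.02. The groups did not overlap for Calr, Pdia6 or Pdia3, and none of these passed edgeR's test on all members. DESeq2 called Calr and Pdia6, which made 5 of the 20 genes, and at a marker sum of at least 6 edgeR called 7 of 19, Calr and Pdia3 among them.

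Of 18 heat shock genes, 1 passed (Hspa8) and 16 had a positive difference (median 0.49). Their sum stood at 4181, 3082 and 2592 CPM in the controls against 5512, 6769 and 6052 with high-fat diet. The cytosolic chaperone gene Hsp90ab1 stood at 1320, 1136 and 922 against 1829, 2194 and 2162, a log2 difference of 0.82 that did not pass (edgeR quasi-likelihood F test, Benjamini-Hochberg adjusted p = 0.138). The inducible genes Hspa1b and Hspb1 differed by 1.24 and 1.04, and the chaperonin gene Hspe1 by 0.25, and none passed.

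Promoters are shown because 3 of the 5 calls were on the unfolded protein response list, whose genes often carry the endoplasmic reticulum stress response element. The element was searched as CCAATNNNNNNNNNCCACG on both strands in RefSeq promoters (GRCm38.p6, from 250 bases before to 50 after each start). It was found in 39 of 32851 promoters (0.119%), in 9 of the 5345 tested genes with a promoter (0.168%) and in 7 of the 18 unfolded protein response genes with one (38.9%). Capitals mark the CCAAT and CCACG parts, or their reverse complements. The windows shown are matches of Hspa5 and Hsp90b1, which passed, and of Calr and Pdia6, which did not pass edgeR's test. No promoter of Manf or Hspa8 was used here. The Hspa5 span given above is from another annotation (GENCODE) and starts before the RefSeq start, so the Hspa5 window lies inside it.
Hspa5, chr2:34772015-34772053 (+): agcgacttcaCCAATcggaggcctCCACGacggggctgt
Hsp90b1, chr10:86705523-86705666 (-): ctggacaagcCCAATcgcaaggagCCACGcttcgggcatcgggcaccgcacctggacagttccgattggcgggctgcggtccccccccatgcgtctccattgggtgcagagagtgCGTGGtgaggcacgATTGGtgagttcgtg
Calr, chr8:84847065-84847103 (-): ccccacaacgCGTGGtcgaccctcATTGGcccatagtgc
Pdia6, chr12:17266481-17266519 (+): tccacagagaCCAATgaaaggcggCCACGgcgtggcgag
The Hsp90b1 window holds 2 matches in opposite orientation. Creld2, Canx and Dnajc3 were the other list members with a match. The heat shock element, searched as GAANNTTCNNGAA on both strands, was found in 198 of 32851 promoters (0.603%), in 4 of 13 heat shock genes (30.8%) and in none of the 18. A match describes letters in the window and is not evidence of binding in these cells.

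No gene passed edgeR's test as lower with high-fat diet, and DESeq2 called Rbm3 and Rcan2 as lower. The 5 lower genes named next were taken by smallest p among those at 50 or more mean CPM with non-overlapping groups. They were Rbm3, Cirbp, Hist1h1c, Srgn and Trp53i11. Rbm3, an RNA-binding protein induced by cold, stood at 282, 369 and 395 CPM in the controls and 183, 108 and 156 with high-fat diet. Cirbp, its cold-inducible relative, stood at 115, 144 and 154 against 62.5, 60.1 and 95.9. Non-overlap was thus required of both genes. Their log2 differences were -1.31 and -0.99 (edgeR quasi-likelihood F test, Benjamini-Hochberg adjusted p = 0.0506 and 0.288). Rbm3 passed in 9 of 17 alternatives (log2 difference -1.46 to -1.13) and Cirbp in 3.

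**Figure D5:**
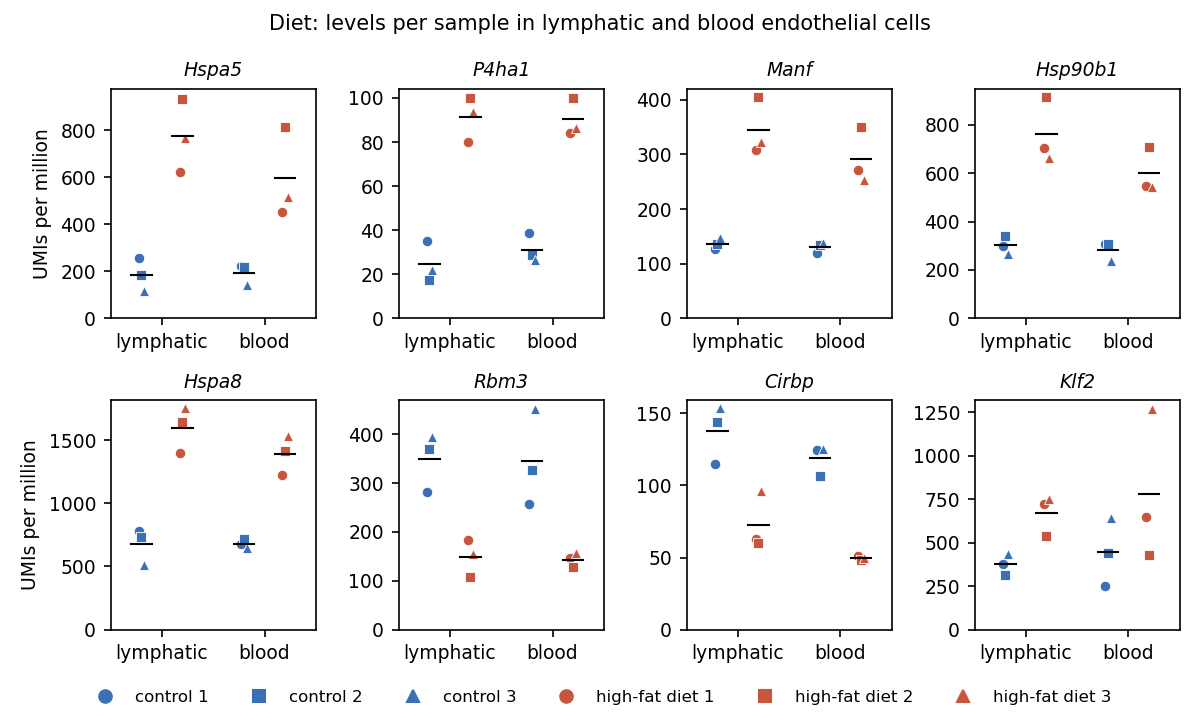
CPM of 8 genes in lymphatic (left of each panel) and blood endothelial cells by sample, with bars at the group means. For Hspa5, P4ha1, Manf, Hsp90b1 and Hspa8 each high-fat diet sample lies above each control in both cell types. Rbm3 and Cirbp lie lower with high-fat diet in lymphatic cells.

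No call fell on the lists of lymphatic identity and function. None passed edgeR's test among 23 identity genes (0 with non-overlapping groups, median log2 difference -0.29), 13 vascular growth factor genes, 10 chemokine and cytokine genes, 13 adhesion genes, 14 junction genes and 25 lipid genes. Groups did not overlap for 4 of the 13 growth factor genes and 3 of the 14 junction genes, all higher with high-fat diet. Over all genes tested the groups did not overlap in 13.6%, with 8.73% higher and 4.89% lower. Without control 1, Nrp2, Stab1 (log2 difference -0.82), Jam3 (-1.84) and the rule gene Flt4 (-0.95) passed as lower and Nrp1 (1.79) as higher. All 6 tested class II genes had negative differences (median -0.95), and 2 had non-overlapping groups, against 4.89% of all genes in that direction. Control 3 held the highest summed class II level, at 3139 CPM against 1562 and 1122 in the other controls and 728 to 1146 with high-fat diet, and without it the median was -0.40. Of 32 genes of oxidative phosphorylation, 31 had a negative difference (median -0.18), and none passed. In blood endothelial cells 31 of the 32 were also negative (median -0.23), as were all 10 tested class II genes (median -0.98). Fibroblast genes had negative differences in 10 of 12 cases in lymphatic cells (median -0.41), and macrophage genes in 9 of 10 (median -0.25), also with no call. In blood endothelial cells the medians of these lists were -0.02 and 0.30.

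Klf2, the shear-responsive transcription factor named in the study's title, stood at 379, 313 and 434 CPM in the lymphatic cells of the controls and at 721, 539 and 752 with high-fat diet. The groups did not overlap, but the log2 difference of 0.77 (SE 0.19) did not pass (edgeR quasi-likelihood F test, Benjamini-Hochberg adjusted p = 0.318). In blood endothelial cells it stood at 250, 443 and 644 against 645, 429 and 1269, which overlapped (0.76, SE 0.50). None of 17 genes linked to Klf2 and shear stress passed in lymphatic cells. Vcam1 differed by 0.51 (SE 0.62) in lymphatic cells, with overlapping groups, and the sign turned to -0.40 without high-fat diet sample 2.

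Blood endothelial cells of the same samples moved in the same direction for the folding genes. Hspa5 stood there at 225, 217 and 141 CPM in the controls and at 453, 815 and 516 with high-fat diet (log2 difference 1.58, SE 0.29). P4ha1 differed by 1.49, Manf by 1.11, Hsp90b1 by 1.04 and Hspa8 by 0.99. None of 12065 genes passed edgeR's test in blood endothelial cells (0.0%), with 821 at an unadjusted p under 0.05 (6.8%) and 39 called by DESeq2 (0.323%). The difference between the diet effects was tested directly in a joint model, and none of 11860 genes passed in edgeR (0.0%), with 332 at an unadjusted p under 0.05 (2.8%) and 1 called by DESeq2 (0.00843%), H19. For Hspa5 the lymphatic effect exceeded the blood effect by 0.50 (SE 0.18) on the log2 scale, and for P4ha1, Manf, Hsp90b1 and Hspa8 by 0.33, 0.17, 0.24 and 0.22, each with an adjusted p of 1 in edgeR's test. These 5 genes were picked for passing in lymphatic cells, which favours a larger lymphatic effect. Over whole lists, the median diet difference of heat shock genes was 0.77 in blood endothelial and 0.49 in lymphatic cells. For unfolded protein response genes the medians were 0.67 and 0.70. The 5 calls were thus not shown to be particular to lymphatic cells.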

How the data were processed

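Per the submitters' processing notes, reads were processed with Cell Ranger 3.0 on mm10, and the authors deposited UMI counts per gene and cell for 6 samples. The annotation and any filter before deposit are not given in the sources used here. The 27998 genes and 62838 cells were filtered as in the report, and 59413 cells stayed. Cell barcodes carried 2 suffixes per sample, which no label explains. Doublets were scored per sample and suffix with Scrublet (expected rate 0.06, limit 0.25) and left out only as an alternative. Cells meeting both rules (9) were counted as lymphatic.

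UMI counts were summed per sample and cell type and tested with edgeR 4.0.16 (R 4.3.3; TMM scaling, filterByExpr, robust quasi-likelihood F-test, Benjamini-Hochberg threshold 0.05). The contrasts of cell type and of Lyve1 side held each sample as a blocking factor, and the diet contrast held none. The diet-by-type model held the sample as a block. DESeq2 1.42.0 was an alternative. CPM is a share of all UMIs in a sum. SEs are |log2 difference| divided by the square root of F. Lyve1 sides needed at least 5 cells, and shares used exact permutation. The models were tested on simulated counts. Depth was set to 2000 or 1500 UMIs per cell by seeded thinning.

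Genes named were the 10 largest differences each way between types (5 for the Lyve1 sides) among called genes. These had 50 or more CPM on the higher side and the same direction in every sample. For diet, all calls were named, or in a direction without one the 5 smallest p. Those 5 were taken among genes with a mean of 50 or more CPM and non-overlapping groups. Of each list, the 5 highest in lymphatic cells and the 4 with the smallest adjusted p were named. Acta2, Cd3d, Tbx1, Nr2f2, Nrp1, Tek, Cxcl12, Cxcl9, Cldn11, Gata2, Thy1 and Pdia6 fall outside this rule and were chosen after their values were seen. Ribosomal, haemoglobin, sex-linked and unnamed genes were left out of the rankings. Members and lists were chosen with earlier results of these data known. Ccl21a rows sharing that symbol were summed for the rule. Promoters are from RefSeq. Some genes counted in the lists are not reported here by name.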

Additional observations from a re-analysis of the deposited data

How the results depend on the processing

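The counts of genes between lymphatic and blood endothelial cells (2736) fell to 1749 without the sample block and 1528 with cells thinned to 2000 UMIs. All 20 named genes kept their direction and call in each alternative that tested them. The Lyve1 comparison (562 genes) gave 278 genes with DESeq2, 871 without a filter on low counts and 362 with raw Lyve1 UMIs. The diet count in lymphatic cells (5) was 11 with DESeq2, 81 without the filter, 13 at a marker sum of at least 3, 11 after thinning, 13 at a sum of at least 6 and 15 at that sum with any Ccl21a and Lyve1, the last 2 added after seeing the data. Leaving out 1 sample gave 0 to 60 genes. The 5 genes kept a positive difference in all 17 alternatives (Hspa5 1.78 to 2.32 on the log2 scale) and passed in 11, or 9 for P4ha1. Same-numbered samples did not deviate together (correlations -0.314, -0.299 and 0.215 over 3199 genes, and 0 samples closest to their own number). With the replicate number as a block, 0 genes passed edgeR's test in lymphatic cells and 401 had an unadjusted p under 0.05. The interaction model already held the sample, so no separate replicate block was fitted there. In blood endothelial cells DESeq2 called 39 genes against 0. The diet-by-type count (0) was 1 with DESeq2, 67 without the filter, 6 at a sum of at least 3, 3 after thinning, 7 at a sum of at least 6, 5 at that sum with any Ccl21a and Lyve1, and 0 to 3 when 1 sample was left out. Klf2 passed edgeR's test without the filter (log2 difference 0.78, adjusted p = 0.0181), and its range over the alternatives was 0.67 to 0.91. Vcam1 ran from -0.40, a reversal without high-fat diet sample 2, to 0.98 without control 2. The lymphatic share of all cells (difference -0.0115 percentage points) ran from -0.266 to 0.200 when 1 sample was left out, and reversed to 0.0328 at a mitochondrial limit of 10%, 0.000467 without doublets, 0.0489 at a marker sum of at least 3, 0.0930 at a sum of at least 6 with any Ccl21a and Lyve1, and 0.0279 after thinning. The cause of these shifts was not tested. The depth of 399664 to 982131 UMIs per lymphatic sum limits all calls of low genes.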

Other observations

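Dbp, Nr1d1, Nr1d2 and Arntl, genes of the circadian clock, differed between the control samples of the lymphatic cells. They are named from 16 clock genes listed after values were seen, of which 10 were tested for diet, and none passed edgeR's quasi-likelihood test. Dbp, a clock output factor, stood at 11.8 CPM in control 1, against 126 and 186 in controls 2 and 3 and 25.0, 26.5 and 12.8 with high-fat diet. Nr1d1, which encodes the clock repressor Rev-erb alpha, stood at 9.40 against 81.7 and 72.5 in the other controls, and at 37.5, 15.3 and 19.2 with high-fat diet. Its relative Nr1d2 stood at 9.40 against 73.9 and 79.8, and at 17.3 to 35.0 with high-fat diet. Arntl, which encodes the activator Bmal1, ran the other way at 18.8 against 9.72 and 1.45, and at 15.0, 27.5 and 19.2. Its values in controls 2 and 3 rest on few UMIs, in sums of 514297 and 689507. Control 1 thus lay with the high-fat diet samples for these genes. Blood endothelial cells showed the same split, with Dbp at 7.17, 224 and 252 in the controls and 18.5, 11.2 and 8.85 with high-fat diet. Without control 1 the log2 differences of Dbp (-2.88), Nr1d1 (-1.86), Nr1d2 (-1.70), Per3 (-1.72) and Tef (-1.34) were among the 60 diet calls in lymphatic cells. The clock genes were listed with the control 1 values known, so the calls without it are not separate support. The labels give no time of day.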
